A study of Mus musculus with 16 samples.

Results

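Hepcidin is the liver hormone that sets how much iron enters the blood, and 10 genes of its circuit were followed here: Hamp and Hamp2, the hepcidin genes, with Id1, Smad7, Hfe, Tfr2, Tfrc, Trf, Slc40a1 and Fth1. They are a given list, found on the array by matching the accession of each probe to a gene symbol. All 10 were found and all 10 were well above background on each of the 16 arrays, among 25789 features tested from 55681 probes, with RefSeq symbols for 15247. Liver RNA came from male mice with the genotype ApoE KO, which lack apolipoprotein E. The 8 miR-185-inh mice received lentivirus encoding an antisense inhibitor of the microRNA miR-185, and the 8 ctrl-inh mice received a control inhibitor. Every mouse had a stated age of 8 weeks and a high-fat diet, and livers were harvested after 8 weeks. The series was made to profile genes that miR-185 regulates in bile acid metabolism. The labels do not state which cells the lentivirus reached, nor whether every sample is a different animal. The p-values therefore describe only how these samples scatter, and that scatter may be technical.

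Hepatocytes secrete hepcidin, which binds ferroportin, the only known cellular iron exporter, and causes it to be degraded, so that less iron leaves gut cells, macrophages and hepatocytes. Hepcidin transcription is driven by BMP ligands from the liver endothelium through SMAD proteins, with HFE and transferrin receptor 2 reporting the iron carried by transferrin, and by IL-6 through STAT3 in inflammation. Iron uptake and storage are set mostly after transcription by iron regulatory proteins, which bind the mRNAs of ferritin and transferrin receptor 1.

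Each array held 59305 non-control spots, of which 58.7% to 74.8% exceeded background by the scanner's criterion. Median signals lay between 182 and 268, and the correlation of array pairs across genes between 0.984 and 0.996. The miR-185-inh and ctrl-inh arrays lay on separate slides that were scanned separately. An effect of slide or scan and an effect of treatment cannot be told apart. Each slide carried its arrays in 2 rows of 4, and rows 1 and 2 of the ctrl-inh slide differed in 1199 features (4.65%) by limma. The hepatocyte markers fitted the labelled tissue: all 10, among them Alb and Ttr, were well above background on every array, and none passed the test between groups. In bulk liver RNA fewer cells of a type and less RNA per cell cannot be told apart. All levels below are log2 values relative to the 75th percentile of their own array, and a difference is the miR-185-inh mean minus the ctrl-inh mean. Levels of different genes are not compared, since each probe has its own response.

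Mice have a pair of hepcidin genes side by side on chromosome 7, and their promoters are shown because they differ at an element that SMAD proteins are known to use. The 250 bases before each RefSeq start are given on build GRCm38.p6, both on the minus strand and 5′ to 3′, for Hamp at chr7:30944030-30944279 and for Hamp2 at chr7:30924182-30924431. Capitals mark GGCGCC, the core of the BMP-responsive element, and TTCNNNGAA, the pattern bound by STAT factors. Each motif is its own reverse complement, and the 2 do not overlap.
Hamp: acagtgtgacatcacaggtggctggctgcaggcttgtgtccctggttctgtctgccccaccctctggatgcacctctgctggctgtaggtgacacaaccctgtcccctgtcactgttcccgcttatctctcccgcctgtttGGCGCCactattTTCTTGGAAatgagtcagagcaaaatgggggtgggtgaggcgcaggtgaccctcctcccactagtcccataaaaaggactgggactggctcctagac
Hamp2: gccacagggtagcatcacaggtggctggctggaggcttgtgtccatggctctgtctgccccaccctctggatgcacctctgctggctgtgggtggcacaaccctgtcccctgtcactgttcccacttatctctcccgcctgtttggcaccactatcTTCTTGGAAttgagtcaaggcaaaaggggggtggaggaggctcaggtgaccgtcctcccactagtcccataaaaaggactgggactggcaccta
The Hamp promoter held GGCGCC at position -109 and TTCTTGGAA at position -97 relative to the start. The Hamp2 promoter held TTCTTGGAA at position -94 and no GGCGCC. An alignment of the 300-base windows, which run 50 bases past the start, placed the substitution G145A in the BMP motif, counted from 1 at the first printed Hamp base. The windows were 92.9% identical over 297 aligned bases. Of 32851 RefSeq promoter windows of that length, 11.9% held GGCGCC, 8.3% held TTCNNNGAA and 0.645% held both. Of the 10 genes, 6 had an entry in the promoter table. Besides the hepcidin pair, Tfrc held GGCGCC in 1 of its 2 entries, and Tfr2, Fth1 and Hfe held neither motif. A match describes the letters of the window and does not show a bound site.

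None of the 10 genes passed the test between groups (limma, adjusted over all features, threshold 0.05), against 4.71% of all features, of which 320 (1.24%) were higher in miR-185-inh livers and 894 (3.47%) lower. The balance of the 2 directions changed with the settings: quantile normalization gave 396 higher calls and 457 lower ones, and the percentile taken over detected probes 310 higher and 1507 lower. Normexp, which also took the median spot signal in place of the processed one, gave 558 higher and 608 lower. At an unadjusted p under 0.05 stood 3 genes, Id1, Smad7 and Fth1, each with a positive difference, against 20.2% of all features at that level in either direction and 6.59% in the positive direction. In all, 6 of the 10 differences were above 0 and 4 below, with a median of 0.10, where 42.0% of all features were above 0 with a median of -0.03.

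**Figure D1:**
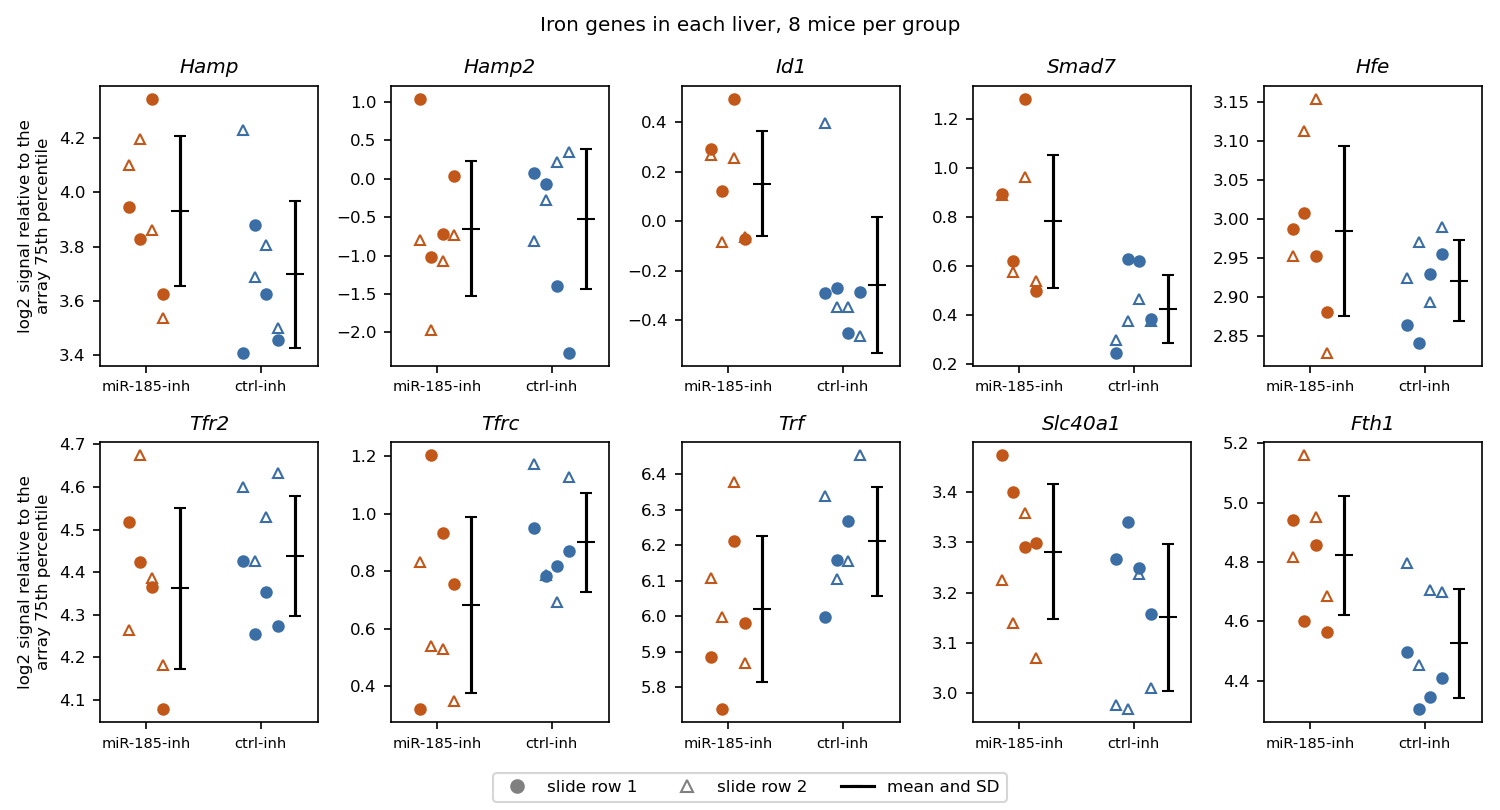
Each point is the log2 signal of a gene in the liver of 1 mouse relative to the 75th percentile of its array, with miR-185-inh on the left and ctrl-inh on the right of each panel; bars are the mean and SD of each group, and filled circles and open triangles are the first and second slide rows. Id1, Smad7 and Fth1 have miR-185-inh livers that all lie above the ctrl-inh mean, while the groups overlap in every panel.

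Hamp (NM_032541, chromosome 7), the hepcidin gene proper, had a lowest, median and highest level of 3.54, 3.90 and 4.34 in miR-185-inh livers, against 3.41, 3.66 and 4.23 in ctrl-inh livers. The groups overlapped over most of their range, with 6 of the 8 miR-185-inh livers above the ctrl-inh mean and ctrl-inh mouse 8 above all miR-185-inh livers but miR-185-inh mouse 6. The means were 3.93 ± 0.28 and 3.70 ± 0.27 (SD, n = 8 each), a difference of 0.23 (SE 0.13, 95% interval -0.04 to 0.51), or 1.17-fold, with a limma adjusted p of 0.341. By itself Hamp gave p = 0.113 in a two-sided exact permutation test over the 16 arrays. The difference was 0.34 between the arrays of row 1 and 0.12 between those of row 2.

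Hamp2 (NM_183257, chromosome 7), the neighbouring copy, had a lowest, median and highest level of -1.96, -0.76 and 1.04 in miR-185-inh livers, against -2.27, -0.17 and 0.35 in ctrl-inh livers. Within each group the livers were spread over several log2 units, with SDs of 0.88 and 0.91, while Hamp had 0.28 and 0.27. The difference was -0.13 (SE 0.41, 95% interval -0.995 to 0.73), with an adjusted p of 0.894 in limma and p = 0.773 in the exact permutation test. In row 1 it was 0.75, against -1.01 in row 2. The interaction of group and row had a limma adjusted p of 0.283. The genes are copies of each other, and how far the probe of each also takes up the transcript of the other was not tested, so the split of signal between Hamp and Hamp2 is uncertain.

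Id1 (NM_010495, chromosome 2) encodes a small inhibitor of helix-loop-helix transcription factors and is a direct target of BMP signalling in hepatocytes and endothelium. Its lowest, median and highest levels were -0.08, 0.19 and 0.50 in miR-185-inh livers, against -0.46, -0.32 and 0.40 in ctrl-inh livers. The groups were apart except for ctrl-inh mouse 8: the other 7 ctrl-inh livers lay below every miR-185-inh liver, and mouse 8 held the 0.40. The means were 0.15 ± 0.21 and -0.26 ± 0.27 (SD, n = 8 each), a difference of 0.41 (SE 0.12, 95% interval 0.16 to 0.66), or 1.33-fold, with an adjusted p of 0.0562 in limma and p = 0.00715 in the exact permutation test. Without ctrl-inh mouse 8 the difference was 0.50 with a limma adjusted p of 0.00996, past the threshold. Leaving out any other of the 16 mice did not pass it, with differences of 0.36 to 0.44 and limma adjusted p of 0.0548 to 0.108.

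Smad7 (NM_001042660, chromosome 18), an inhibitory SMAD that is induced by BMP and TGF-β signals and restrains both, had levels of 0.50, 0.76 and 1.28 in miR-185-inh livers, against 0.24, 0.38 and 0.63 in ctrl-inh livers. All 8 miR-185-inh livers were above the ctrl-inh mean, 4 of them above the highest ctrl-inh liver, and 6 of the 8 ctrl-inh livers were below the lowest miR-185-inh liver. The means were 0.78 ± 0.27 and 0.42 ± 0.14 (SD, n = 8 each), a difference of 0.36 (SE 0.11, 95% interval 0.14 to 0.58), or 1.28-fold. Limma gave an adjusted p of 0.0594, and the exact permutation test p = 0.00373. The difference was 0.35 in row 1 and 0.36 in row 2.

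The iron sensors of the hepatocyte surface had smaller differences. Hfe (NM_010424, chromosome 13), the protein mutated in common hereditary haemochromatosis, had levels of 2.83, 2.97 and 3.15 in miR-185-inh livers, against 2.84, 2.93 and 2.99 in ctrl-inh livers. The ctrl-inh range lay wholly inside the miR-185-inh range, and the difference was 0.06 (SE 0.05, 95% interval -0.05 to 0.18), with an adjusted p of 0.562 in limma. Tfr2 (NM_015799, chromosome 5), the transferrin receptor that acts as a sensor of loaded transferrin, had levels of 4.08, 4.38 and 4.68 in miR-185-inh livers, against 4.26, 4.43 and 4.63 in ctrl-inh livers. Here too the ctrl-inh range lay inside that of the miR-185-inh livers. The difference was -0.08 (SE 0.09, 95% interval -0.26 to 0.10), with an adjusted p of 0.671 in limma, and its sign turned under normexp (0.044) and in row 1 alone (0.019).

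Among the genes that carry, take up and export iron, Trf (NM_133977, chromosome 9), the plasma iron carrier transferrin, had levels of 5.74, 5.99 and 6.38 in miR-185-inh livers, against 5.997, 6.16 and 6.45 in 7 ctrl-inh livers. The spot of ctrl-inh mouse 3 was marked as an outlier by the scanner software and left out. In miR-185-inh livers 4 of 8 values were below the lowest ctrl-inh value and 2 were above the ctrl-inh mean. The difference was -0.19 (SE 0.10, 95% interval -0.39 to 0.01), or 0.877-fold, with an adjusted p of 0.279 in limma and p = 0.0653 in the exact permutation test. The other Trf probe gave -0.096.

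Tfrc (NM_011638, chromosome 16), transferrin receptor 1, which imports loaded transferrin and whose mRNA is stabilised when cells lack iron, had levels of 0.32, 0.65 and 1.20 in miR-185-inh livers, against 0.69, 0.84 and 1.17 in ctrl-inh livers. In the miR-185-inh group 4 livers lay below the lowest ctrl-inh liver, while 1 lay above the highest. The difference was -0.22 (SE 0.12, 95% interval -0.47 to 0.03), or 0.860-fold, with an adjusted p of 0.324 in limma and p = 0.102 in the exact permutation test. The Tfrc probes disagreed in sign: another probe, well above background on 7 miR-185-inh and 7 ctrl-inh arrays, gave 0.28, and the remaining probe was not well above background on any array.

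Slc40a1 (NM_016917, chromosome 1), the ferroportin that hepcidin binds, had levels of 3.07, 3.29 and 3.47 in miR-185-inh livers, against 2.97, 3.20 and 3.34 in ctrl-inh livers. The groups overlapped, with 6 of 8 miR-185-inh livers above the ctrl-inh mean and 3 ctrl-inh livers below the lowest miR-185-inh liver. The difference was 0.13 (SE 0.07, 95% interval -0.03 to 0.29), or 1.09-fold, with an adjusted p of 0.348 in limma and p = 0.0841 in the exact permutation test.

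Fth1 (NM_010239, chromosome 19), the heavy chain of ferritin that oxidises iron for storage, had levels of 4.56, 4.84 and 5.16 in miR-185-inh livers, against 4.30, 4.48 and 4.80 in ctrl-inh livers. All 8 miR-185-inh livers were above the ctrl-inh mean, 5 of them above the highest ctrl-inh liver, and the 3 highest ctrl-inh livers overlapped the miR-185-inh range. The means were 4.82 ± 0.20 and 4.53 ± 0.18 (SD, n = 8 each), a difference of 0.30 (SE 0.10, 95% interval 0.09 to 0.50), or 1.23-fold, with an adjusted p of 0.0838 in limma and p = 0.00886 in the exact permutation test. Fth1 passed the threshold under quantile normalization (0.32, limma adjusted p = 0.0202). Its partner in the ferritin shell, the light chain gene Ftl1, given for its role, had means of 5.32 in miR-185-inh and 5.31 in ctrl-inh livers, a difference of 0.0060 (SE 0.085).

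**Figure D2:**
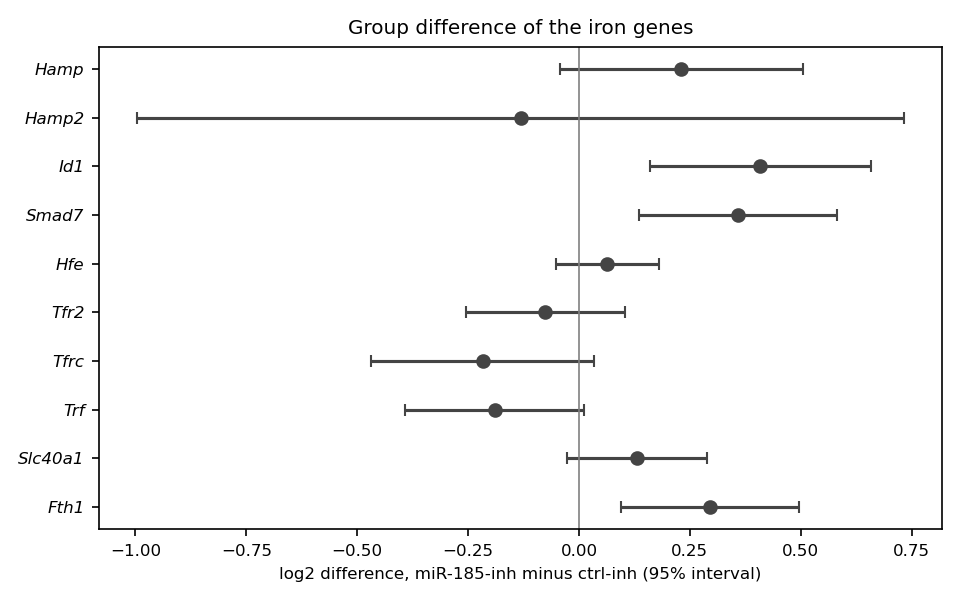
Points are the log2 differences of the 10 genes, miR-185-inh minus ctrl-inh, from limma on 16 arrays, and bars are their 95% intervals before any adjustment for the number of features. Id1, Smad7 and Fth1 have intervals wholly above 0 (0.16 to 0.66, 0.14 to 0.58 and 0.09 to 0.50), and the interval of Hamp2 is the widest.

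Around the members, 7 lists of related genes were read in the same fit. Of the BMP and SMAD pathway 19 of 20 genes were tested and 2 were called higher in miR-185-inh livers, against 1.24% of all features. They were Smad5, a receptor-activated SMAD, and Smad4, the partner SMAD with which it enters the nucleus. The other 17 did not pass. The list had 14 genes above 0 and a median difference of 0.16, against 42% above 0 and a median of -0.03 over all features. The lists were chosen with earlier results of these data known, so their counts and medians are descriptive only. Smad5 had levels of 1.43, 1.51 and 1.62 in miR-185-inh livers, against 1.23, 1.28 and 1.40 in ctrl-inh livers. Smad4 had 2.60, 2.68 and 2.79 in miR-185-inh livers, against 2.36, 2.47 and 2.59 in ctrl-inh livers. For both genes the groups did not overlap, with all 8 miR-185-inh livers above all 8 ctrl-inh livers. Both were named because they were called, so this separation is not separate support. The share of all features separated in this way was not counted.

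The Smad5 difference was 0.21 (SE 0.05), or 1.16-fold, with an adjusted p of 0.0192 in limma, and that of Smad4 was 0.21 (SE 0.05), also 1.16-fold, with an adjusted p of 0.0327. Each gave p = 0.000155 in the two-sided exact permutation test, the smallest that 8 against 8 arrays allow. Any gene whose groups do not overlap gives this value. Both calls rested on the brightest probe of the gene: a second probe gave 0.076 for Smad4 and 0.071 for Smad5, and with the mean of the probes the limma adjusted p was 0.157 for Smad4 and 0.187 for Smad5. Within a single slide row neither was called, with 0.27 in row 1 and 0.15 in row 2 for Smad4, and 0.29 in row 1 and 0.13 in row 2 for Smad5. Over all features 0 were called within row 1 and 466 within row 2. The Smad4 call was also lost on leaving out miR-185-inh mouse 6, 9 or 10 or ctrl-inh mouse 1, 2, 3, 4 or 12, with a limma adjusted p of 0.0294 to 0.0649 over the 16 mice, while Smad5 stayed called in all 16.

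Further genes of this pathway are given for their role and outside the rule for named genes, after their values were seen, and none of them was called. The ligands Bmp2, made by sinusoidal endothelium, and Bmp6, its iron-responsive relative, had differences of 0.20 (SE 0.14) and 0.27 (SE 0.23), each negative in row 1 (-0.20 and -0.20) and positive in row 2 (0.60 and 0.74). Every sinusoidal endothelial marker tested had this same sign change, such as Cdh5 (-0.37 in row 1, 0.55 in row 2) and Fcgr2b (-0.43 and 0.78). The part of that shared pattern in the ligand differences was not tested. Hjv, the hemojuvelin co-receptor without which hepcidin is low, had -0.25 (SE 0.12), and its binding partner Neo1 had 0.24 (SE 0.08, limma adjusted p = 0.0837). Tmprss6, the protease that cleaves hemojuvelin, had -0.04 (SE 0.07). Erfe, the hormone that red cell precursors use to lower hepcidin, had 0.21 (SE 0.08), with all 8 miR-185-inh livers above the ctrl-inh mean. Of the other Id genes, Id2 had 0.01 (SE 0.11) and Id3 had -0.21 (SE 0.12), beside the 0.41 of Id1.

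In the IL-6 and STAT3 list 14 of 15 genes were tested and 1 was called higher, against 1.24% of all features. It was Jak2, a kinase bound to cytokine receptors. Jak2 had levels of -0.20, 0.49 and 0.58 in miR-185-inh livers, against -0.35, -0.10 and 0.10 in ctrl-inh livers. In miR-185-inh livers 6 of 8 values were above the highest ctrl-inh value. The difference was 0.46 (SE 0.12), or 1.38-fold, with an adjusted p of 0.0305 in limma. With array position on the slide, as row and column, in the fit the difference was again 0.46 but the call was lost (limma adjusted p = 0.0527). In row 1 alone, where 0 of all features were called, the Jak2 difference was 0.25. In row 2 alone it was 0.67 and called (limma adjusted p = 0.0275). The call was also lost on leaving out miR-185-inh mouse 6, 7, 8, 9, 10 or 12 or ctrl-inh mouse 3, 8, 11 or 12, with differences of 0.43 to 0.54 and limma adjusted p of 0.00387 to 0.0638 over the 16 mice. The list as a whole had 7 genes above 0 and 7 below, with a median of -0.02. Il6ra, the receptor for IL-6, had 0.29 (SE 0.10, limma adjusted p = 0.112), and Il6 itself was too dim to be tested.

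Of 21 acute phase genes, which share the IL-6 input with hepcidin, none was called, and 20 had differences below 0, with a median of -0.16. Lbp, which presents bacterial lipopolysaccharide, had levels of 2.28, 2.51 and 3.33 in miR-185-inh livers, against 2.69, 2.995 and 3.52 in ctrl-inh livers, a difference of -0.40 (SE 0.15, limma adjusted p = 0.130). Lcn2, which binds bacterial iron carriers and is also made by neutrophils, had 2.19, 2.88 and 5.20 in miR-185-inh livers, against 2.81, 4.05 and 5.27 in ctrl-inh livers, a difference of -0.95 (SE 0.38, limma adjusted p = 0.161). For both genes the groups overlapped, with 6 miR-185-inh livers below the lowest ctrl-inh liver for Lbp and 4 for Lcn2. Neutrophil markers differed in the same direction: of 12 tested of 14 listed, 2 were called lower (Ltf and Ngp), all 12 differences were below 0 with a median of -0.90, Ly6g and Fcnb were not tested, and the summed linear signal of the list, in units of the 75th percentile, ran over 2.18 to 14.1 in miR-185-inh and 4.62 to 16.5 in ctrl-inh livers. Of these, Ltf was well above background on 3 of 8 miR-185-inh and 8 of 8 ctrl-inh arrays, so most of its miR-185-inh values were at background, and Ngp was above it on all arrays. Mpo was well above it on 3 miR-185-inh and 7 ctrl-inh arrays, Camp on 6 and 8, and Elane and Mmp9 on 8 and 7. The 12 signs and the median include these dim genes and are not separate support for a difference. Over all features 3.47% were called lower. All 12 Kupffer cell and macrophage markers tested of 13, Cd68 not among them, also had differences below 0, with a median of -0.15 and none called. Between the arrays of row 2 most of them were above 0, such as Marco (-0.79 in row 1, 0.55 in row 2) and C1qb (-0.75 and 0.23). Clec4f, Vsig4 and Cd163 stayed below 0 in both rows. The summed signal of this marker list ran over 66.9 to 115 in miR-185-inh and 84.5 to 121 in ctrl-inh livers. The part of either marker list in the acute phase differences was not tested.

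The remaining iron lists held no called gene. Of the 15 iron transport and storage genes tested of 17, 9 were above 0 and the median was 0.01, with the metal importer Slc39a8 at 0.14 (SE 0.07) and the mitochondrial iron importer Slc25a28 at 0.10 (SE 0.07). The iron regulatory protein system had 1 of 6 genes above 0 and a median of -0.07, with Cul1 at -0.13 (SE 0.07) and Skp1 at -0.08 (SE 0.06), which are shared parts of the ubiquitin ligase that removes iron regulatory protein 2. Haem synthesis, breakdown and transport had 8 of 20 genes above 0 and a median of -0.04, with the haem exporter Flvcr1 at -0.19 (SE 0.06, limma adjusted p = 0.0789) and the biliverdin reductase Blvra at -0.11 (SE 0.06). Iron-sulfur cluster assembly had 6 of 20 above 0 and a median of -0.02, with the cytosolic assembly factor Ciapin1 at 0.23 (SE 0.07, limma adjusted p = 0.0798) and the mitochondrial Lyrm4 at 0.17 (SE 0.07).

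**Figure D3:**
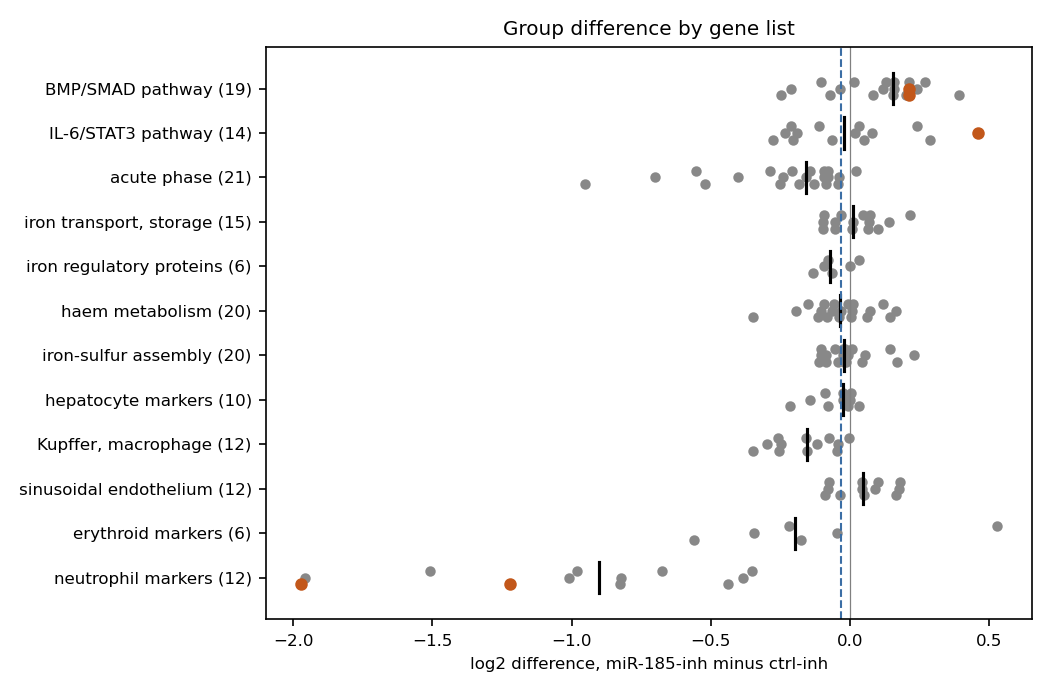
Each point is the log2 difference of 1 gene, miR-185-inh minus ctrl-inh, in 7 lists of the iron circuit and 5 of cell type markers, with the number of genes tested in brackets; larger orange points passed limma at an adjusted p under 0.05, short black bars are list medians, and the dashed line is the median of all features at -0.03. The BMP and SMAD list has a median of 0.16 and the neutrophil markers one of -0.90.

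The covariation of each member with Hamp was read across the 16 arrays after subtracting group means, so that the difference between groups did not enter. A slope on Hamp was fitted for all features with limma, and 9 relations of members with Hamp were computed, of which 7 had r above 0. None of the 9 slopes passed the adjustment over all features, against 0.00388% of all features, and 2 were at an unadjusted p under 0.05, those of Id1 and Fth1, against 5.95% of all features at that level, 4.69% with a positive slope like theirs. The median r with Hamp over all features was 0.13, and 66.1% were above 0. Hamp had r = -0.17 with the 75th percentile signal of the array and -0.11 with the percent of spots well above background.

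Id1 had the highest r with Hamp of the members, 0.70 (permutation p = 0.00588, limma slope adjusted p = 0.776), with a Spearman rho of 0.54 (permutation p = 0.0442). Among 13866 named genes well above background on all arrays, 32 had a higher r. The relation was positive in both groups, with r = 0.61 (exact permutation p = 0.110) in miR-185-inh livers and r = 0.78 (exact permutation p = 0.0469) in ctrl-inh livers, and it was 0.69 within group and slide row. It rested in large part on the extremes: without the 2 arrays farthest from the median of Hamp, miR-185-inh mouse 6 at 4.34 and ctrl-inh mouse 8 at 4.23, r was 0.29, and among ctrl-inh livers without mouse 8 it was 0.14.

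Fth1 had r = 0.53 with Hamp (permutation p = 0.0434, limma slope adjusted p = 0.776) and rho = 0.53 (permutation p = 0.0441). It gave r = 0.44 without the 2 farthest arrays, 0.51 within group and slide row, 0.65 in miR-185-inh livers (exact permutation p = 0.0809) and 0.40 in ctrl-inh livers (exact permutation p = 0.339). Among ctrl-inh livers without mouse 8 the r of Fth1 was -0.14. Smad7 had r = 0.47 (permutation p = 0.0752) and rho = 0.50 (permutation p = 0.0654), and r = 0.53 without the 2 farthest arrays. In the miR-185-inh group the r of Smad7 was 0.68 (exact permutation p = 0.0629) and in the ctrl-inh group 0.13 (exact permutation p = 0.778), where leaving out ctrl-inh mouse 8, high for Hamp and Id1 and low for Smad7, gave 0.72. Within group, the r of Smad7 with Hamp was 0.95 over the arrays of row 1 and 0.044 over those of row 2, with limma slope adjusted p of 0.943 and 0.998. Tfr2 had r = 0.46 (permutation p = 0.0846) and rho = 0.45 (permutation p = 0.0998), and r = 0.44 without the 2 farthest arrays. Its r was 0.60 in miR-185-inh livers (exact permutation p = 0.111) and 0.27 in ctrl-inh livers (exact permutation p = 0.524). Leaving out ctrl-inh mouse 8 gave -0.17 in the ctrl-inh group. Among the same 13866 named genes, 694 (5.01%) had a higher r than Fth1, 1204 (8.68%) than Smad7 and 1365 (9.84%) than Tfr2.

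The other members had lower values. With Hamp, Trf had r = 0.32 (permutation p = 0.259) and rho = 0.38 over 15 arrays. Hfe had r = 0.22 (permutation p = 0.438) and rho = 0.17, and Tfrc had r = 0.22 (permutation p = 0.439) and rho = 0.09. Slc40a1, whose protein is the target of hepcidin, had r = -0.08 (permutation p = 0.783) and rho = -0.02. Hamp2 had r = -0.10 (permutation p = 0.723) and rho = -0.10, and its r was -0.29 in miR-185-inh livers and 0.09 in ctrl-inh livers. Within group, the r of Hamp2 with Hamp was 0.026 over the arrays of row 1 and -0.75 over those of row 2, where its slope had a limma adjusted p of 0.998.

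**Figure D4:**
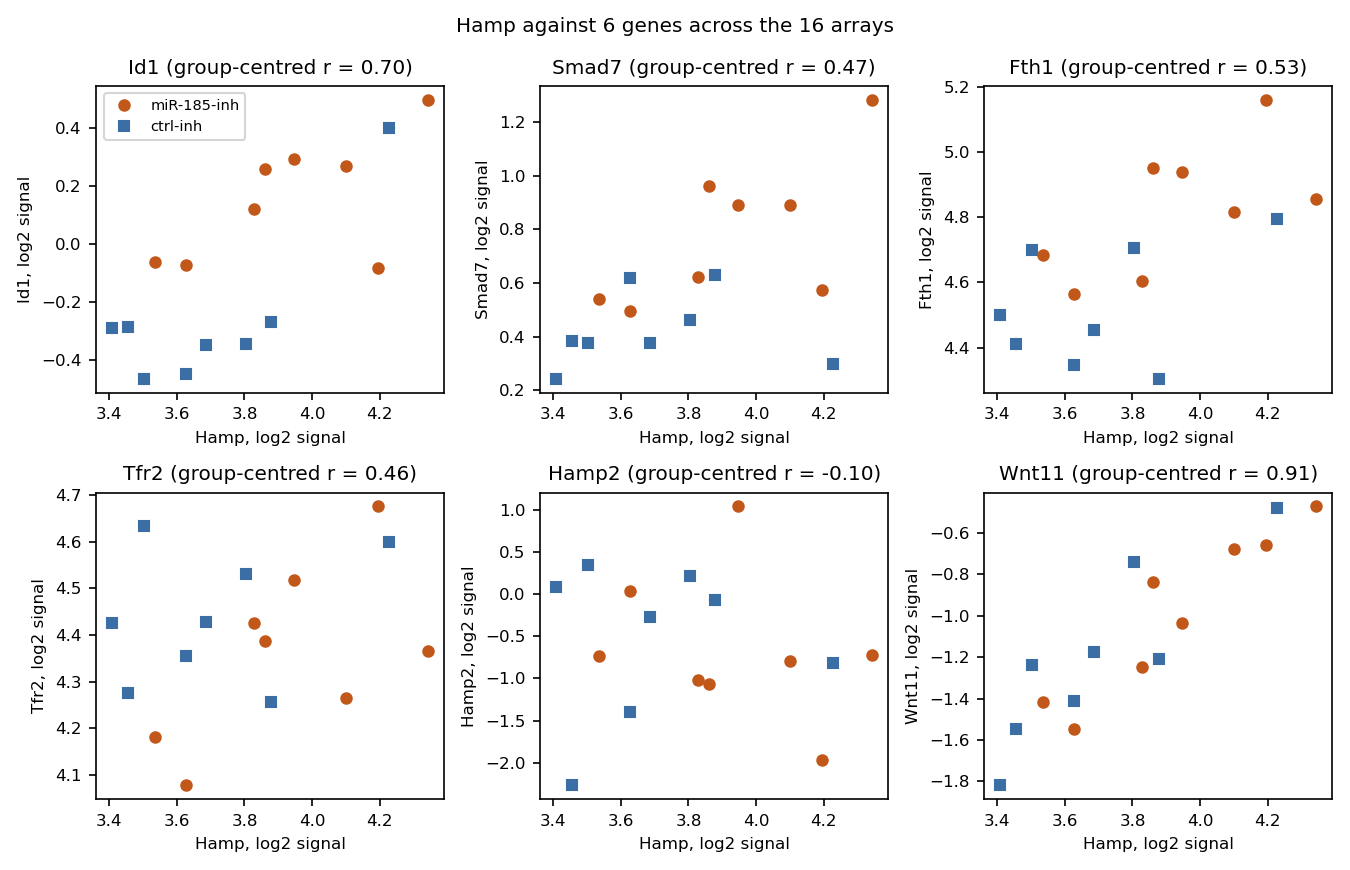
Each point is 1 array, with the log2 signal of Hamp on the horizontal axis and that of another gene on the vertical axis, both relative to the 75th percentile of the array; orange circles are miR-185-inh and blue squares ctrl-inh livers. In the Id1 panel 7 of the 8 blue squares lie below every orange circle and the remaining one, at a Hamp level of 4.23, is ctrl-inh mouse 8; Wnt11 climbs with Hamp in both groups, with r = 0.94 in miR-185-inh and 0.88 in ctrl-inh livers.

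Hepatocyte markers varied in the same direction as Hamp. All 10 hepatocyte markers had r above 0 with Hamp, with a median of 0.45, and their summed signal had r = 0.61 with it. The summed hepatocyte signal, in units of the 75th percentile, had a lowest, median and highest value of 382, 443 and 514 in miR-185-inh livers, against 404, 458 and 540 in ctrl-inh livers. Markers of other liver cells mostly had negative r. The median was -0.24 over 12 Kupffer cell and macrophage markers with 2 above 0, and -0.21 over 12 sinusoidal endothelial markers with 1 above 0. It was -0.40 over the 6 erythroid markers tested of 12, with 1 above 0, and -0.03 over the 12 neutrophil markers, with 5 above 0. The part of these shared levels in the relations of Hamp with Id1, Fth1, Smad7 and Tfr2 was not tested. Iron transport and storage genes had a median r of 0.37 with Hamp, 13 of 15 above 0, while the BMP and SMAD list had 0.04, 12 of 19 above 0.

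**Figure D5:**
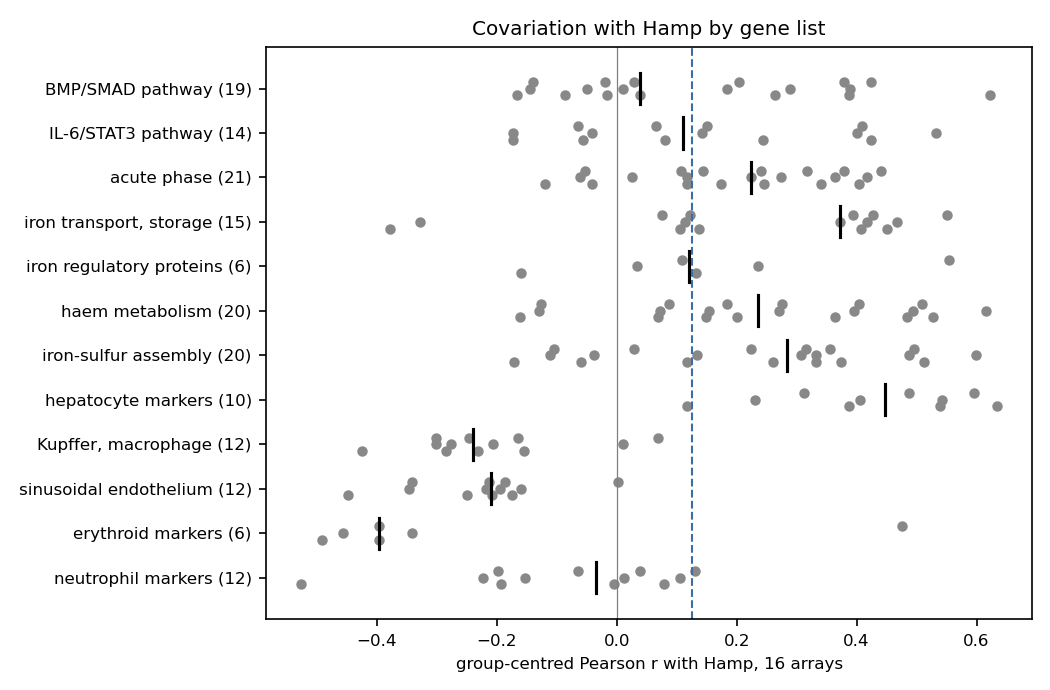
Each point is the Pearson r of 1 gene with Hamp over 16 arrays after subtraction of group means, in the same 12 lists; short black bars are list medians and the dashed line is the median of all features at 0.13. Hepatocyte markers are all above 0 with a median of 0.45, and the Kupffer, endothelial and erythroid markers have medians below 0.

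Among the 45 pairs of members, 32 had r above 0 and the median was 0.11. The closest pair was Tfr2 and Fth1 with r = 0.85 (permutation p = 0.0002) and rho = 0.84 (permutation p = 0.00029), 0.80 in miR-185-inh and 0.93 in ctrl-inh livers. Both genes were higher in row 2 than in row 1 of the ctrl-inh slide, Tfr2 by 0.22 and Fth1 by 0.27. The part of slide row in their r was not tested. Tfr2 and Hfe, whose proteins form a complex, had r = 0.64 (permutation p = 0.0165) and rho = 0.64 (permutation p = 0.0142). These p-values were not adjusted for the 45 pairs. The lowest values were -0.36 for Hamp2 with Hfe and -0.32 for Slc40a1 with Fth1.

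Of all 25788 features other than Hamp, 1 passed the adjusted threshold for a slope on Hamp, Wnt11, which encodes a secreted Wnt ligand. Wnt11 (NM_009519) had levels of -1.55, -0.94 and -0.47 in miR-185-inh livers, against -1.82, -1.22 and -0.48 in ctrl-inh livers. The groups overlapped over most of their range, and the difference between them was 0.22 (limma adjusted p = 0.567). It increased by 1.36 (SE 0.17) log2 units per log2 unit of Hamp, with an adjusted p of 0.0194 in limma. Its r with Hamp was 0.91 and its rho 0.91 (permutation p = 2e-05 for each). The r was 0.94 in miR-185-inh livers (exact permutation p = 0.000719), 0.88 in ctrl-inh livers (exact permutation p = 0.00288), and 0.85 without the 2 farthest arrays. Wnt11 was picked by its slope among all features on these same arrays. The permutation p-values take no account of that choice and are not separate support.

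The slope of Wnt11 kept its size, 1.13 to 1.44, over the alternative settings, while its call was lost with normexp, quantile normalization, the percentile taken over detected probes, no filter on dim probes, slide row and column as covariates, and within each row. It was also lost on leaving out miR-185-inh mouse 6, 7, 8, 9 or 12 or ctrl-inh mouse 1, 4 or 8, with an adjusted p in limma of 0.0129 to 0.377 over the 16 mice. The 5 named genes next in likeness, over 16 arrays and 13866 candidates, were Slc25a38 with r = 0.81, an importer of glycine for haem synthesis in mitochondria, Thoc7, Slc38a4 and Zfp93 with 0.78, and Acot13 with 0.77. Slc38a4, an amino acid transporter of hepatocytes, had r = 0.86 in miR-185-inh and 0.92 in ctrl-inh livers. At the other end stood Pabpc1l with r = -0.82, Plk1, a mitotic kinase, and Phf13 with -0.73, and Iqsec1 with -0.71. Of these 10 genes Pabpc1l and Plk1 were lower in miR-185-inh livers, each by 0.53 on the log2 scale (limma adjusted p = 0.00777 and 0.0291), and the other 8 did not pass. Over all features 3.47% were called lower.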

How the data were processed

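RNA from 16 livers was hybridised to 1-colour Agilent mouse arrays. The deposited scanner files hold a processed intensity per spot, background-subtracted and detrended by Feature Extraction 11.5.1.1 per the file headers, and the median intensities of the spot and its background; the submitters' processing notes name version 9.1. The authors' deposited value table is on a log2 scale and equalled log2 of the processed intensity minus 1 constant per array (SD of the difference at most 4.05e-07 over 35985 probes, column medians -1.30 to -1.22). The choice of constant is not stated in these sources.

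Groups came from the treatment field and mouse numbers from the titles. Values were log2 of the processed intensity minus the 75th percentile of the array over its non-control spots. Outlier-marked spots were dropped and the spots of a probe averaged. The filter required a probe to exceed background on 8 or more of the 16 arrays, whatever their group, and the brightest remaining probe stood for its gene. Accessions were matched without version to RefSeq GRCm38.p6 for names only, since the array grid is on mm9; 26762 of 55681 probes were named. No genome coordinates of probes were used.

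Groups, and slopes on Hamp with group as a term, were tested with limma 3.58.1 in R 4.3.3, two-sided, at 0.05 after Benjamini-Hochberg adjustment across features, after the steps had been tested on simulated data. Single genes were also tested by exact permutation of the 16 arrays, and correlations by 100000 permutations of group-centred values or, within a group, by all orders. The members and gene lists were chosen with earlier results of these data known. Genes named beside the members were the called genes of each list, its 2 genes with the smallest p, and the 6 highest and 4 lowest r with Hamp. Alternatives were normexp (offset 50, on the median spot signal), quantile normalization, the percentile taken over detected probes alone, the authors' table, a stricter and no dim-probe filter, the mean of probes, eBayes with trend, array weights, slide row and column as covariates, each row alone, a replicate block, and leaving out each mouse. The number of arrays limits the precision.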

Additional observations from a re-analysis of the deposited data

Results flagged for a closer look

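The Id1 level of ctrl-inh mouse 8 stood far from the rest of its group: it was 0.40, the next ctrl-inh liver was at -0.27, and that gap was 0.776 of the range of the group, above the critical value of 0.526 for 8 samples. It was the only such value among the 20 groups examined, 10 genes in 2 groups, and chance gives about 1 in 20. The same liver had the highest Hamp level of the ctrl-inh group, 4.23.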

How the results depend on the processing

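The count of called features was 0 within row 1 and 466 within row 2, and 735 to 1580 on leaving out single mice, with 735 without miR-185-inh mouse 7, 766 without mouse 6, 794 without ctrl-inh mouse 11 and 786 without mouse 12. In the main fit 0 members and 1214 of all features were called. Quantile normalization called 1 member and 853 features, and the detected-probe percentile 1 member and 1817 features. Array weights called 2 members and 1700 features, and slide row and column as covariates 2 members and 1432 features. Leaving out single mice called 0 to 1 members. Features covarying with Hamp numbered 0 under normexp, quantile normalization, the percentile over detected probes, no dim-probe filter, slide row and column as covariates, and each row alone, and 0 to 1 on leaving out single mice. Id1 was called with the detected-probe percentile (limma adjusted p = 0.0463), array weights (0.0263) and row and column (0.0429), Fth1 under quantile normalization (0.0202) and array weights (0.0359), and Smad7 with row and column (0.0335).

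The differences that turned sign were those of Hamp2 with array weights (0.14), in row 1 (0.75) and over single mice left out (-0.38 to 0.056), Tfrc with the mean of probes (0.029) and a dimmer probe (0.28), and Tfr2 with normexp (0.044) and in row 1 (0.019). The r with Hamp turned sign for Hamp2 in row 1 (0.026), in ctrl-inh livers alone (0.086) and over single mice (-0.30 to 0.020), for Tfrc in row 1 (-0.051) and without the 2 farthest arrays (-0.13), for Slc40a1 in row 1 (0.18), row 2 (0.085), miR-185-inh livers alone (0.079), without the 2 farthest arrays (0.17) and over single mice (-0.31 to 0.15), for Trf under quantile normalization (-0.096), and for Hfe under quantile normalization (-0.29), the detected-probe percentile (-0.013), row and column (-0.026), row 1 (-0.0096) and ctrl-inh livers alone (-0.23). Among ctrl-inh livers without mouse 8, r with Hamp was negative for Fth1 (-0.14), Tfr2 (-0.17), Trf (-0.15), Tfrc (-0.71) and Hfe (-0.41). There it was positive for Id1 (0.14), Smad7 (0.72), Slc40a1 (0.29) and Hamp2 (0.31). The differences of Hamp, Slc40a1, Fth1, Trf, Hfe, Smad7 and Id1 kept their sign in every setting. Fewer arrays enter the fits within a row; for the other changes the cause was not tested.

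With the replicate block over shared mouse numbers 1069 features and 0 members were called and 1 feature covaried with Hamp. Of the 5 shared numbers 1 gave correlated deviations above 0.1 (0.11), and none of the 5 correlated best with its own number, so the numbers are not taken as pairs. Over all settings the median difference of all features was -0.070 to 0.0070.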

Other observations

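Genes chosen after their values were seen add the following. Among the erythroid markers, Klf1, a red cell transcription factor, had means of 0.31 ± 0.41 in miR-185-inh and -0.22 ± 0.25 in ctrl-inh livers (SD, n = 8 each), a difference of 0.53 (SE 0.16, limma adjusted p = 0.0631), while the globin genes Hba-a1, Hbb-bt and Hbb-bs had differences of -0.22 (SE 0.21), -0.05 (SE 0.22) and -0.56 (SE 0.46). Klf1 had r = 0.48 with Hamp across the 16 arrays, and the 3 globin genes had -0.46, -0.49 and -0.40.

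Hmox1, the haem oxygenase that frees iron from haem, had a difference of 0.15 (SE 0.17) that was -0.41 between the arrays of row 1 and 0.70 between those of row 2, and the interaction of group and row had a limma adjusted p of 0.0482. The sinusoidal endothelial markers changed sign between the rows in the same way, and the part of that shared pattern was not tested. Among the iron and haem lists, r with Hamp was 0.62 for Abcg2, a porphyrin exporter, 0.60 for the ferredoxin Fdx1, and 0.55 for both Aco1, iron regulatory protein 1, and Slc39a14, an importer of iron not bound to transferrin. None of these slopes on Hamp passed the limma adjustment over all features.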
